A study of Bos taurus with 6 samples.

Results

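The calcium pumps, calcium buffers and calmodulin of muscle, 10 genes in all, were looked for on a 3 prime expression array of cattle muscle, as the array's platform annotation names them. The probe sets kept were those annotated with exactly 1 gene symbol that equals a listed gene. In all, 13 probe sets of 6 of the 10 genes were found, among 13292 tested probe sets of 9155 genes. They are 2 for ATP2A1, 4 for ATP2A2, 3 for PLN, 1 for SLN, 1 for CACNA1S and 2 for CALM. The other 4 genes, CASQ1, CASQ2, PVALB and RYR1, had no probe set under that symbol and are not analysed here.

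A muscle fibre contracts when an action potential reaches the dihydropyridine receptor of the transverse tubule, which opens the ryanodine receptor of the sarcoplasmic reticulum and lets calcium out. Calcium pumps of the SERCA family carry it back and so end the contraction, and the small membrane proteins phospholamban and sarcolipin slow these pumps. Calmodulin is a soluble calcium sensor that passes the signal on to kinases, to the phosphatase calcineurin and to glycogen breakdown. Fast fibres mainly use the pump encoded by ATP2A1, and slow fibres, like the heart, a form encoded by ATP2A2.

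The muscle was longissimus thoracis of 6 castrated male Japanese Black cattle, fattened for 7 months and fed alike for a set weight gain. Restricted steers (n = 3) got no vitamin A supplement, and supplemented steers (n = 3) were given by mouth 296.8 IU of vitamin A per kg body weight each week. Restricted steers were 598.3 ± 11.4 days old and supplemented steers 610.0 ± 9.2 days old at sampling (SD, n = 3 each). The vitamin A status of the single steers was not used here. Each array is 1 steer, so the spread below is that between animals on the same diet. In whole muscle, fewer cells of a type and less RNA per cell cannot be told apart.

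The deposited values run from 4.81 to 12.67 and are taken as log2 values, with a median of 5.14. In 6 measured genes that define skeletal muscle (ACTA1, CKM, MB, DES, MYOT and NEB) mean values lay from 9.71 to 12.67. The 4 lymphocyte genes looked at lay from 5.02 to 5.34, and 3 red cell genes from 5.01 to 5.04. Probe sets bind with different strength, so these levels are a check of the tissue and no ranking. For each probe set the arrays lie very close together, with a median range of 0.677 millionths of a log2 unit. The processing step behind this closeness is not given in the sources used here, so no fold change is drawn. Values of single steers are therefore printed as deviations from the mean of the probe set, in millionths of a deposited log2 unit ("millionths" from here on). Differences between the diets are restricted minus supplemented, also in SDs within the diet groups, a unit that takes out the scale of the probe set.

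Of the 13 probe sets, 6 had a higher and 7 a lower mean in restricted steers, and none passed the limma test at an adjusted p under 0.05. All 13 had an adjusted p of 1.0. Over the whole array 1 of 24016 probe sets passed, 0.00416%, and that 1 belongs to the retinaldehyde reductase DHRS3. At an unadjusted p under 0.05 there was 1 of the 13 (7.69%), a CALM probe set, where 4.08% of all probe sets reached that level. The diet groups did not overlap in 3 of the 13 (23.1%), against 8.76% of all probe sets. Of these 3, 2 are CALM and share a gene, and the other is an ATP2A2 probe set whose groups lie 0.011 millionths apart. The median difference over the 13 was -0.0128 SDs, and that over all probe sets -0.0328 SDs. As a set the pumps, their regulators and calmodulin were thus spread around the middle of the array, with both CALM probe sets lowest in SDs.

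**Figure D1:**
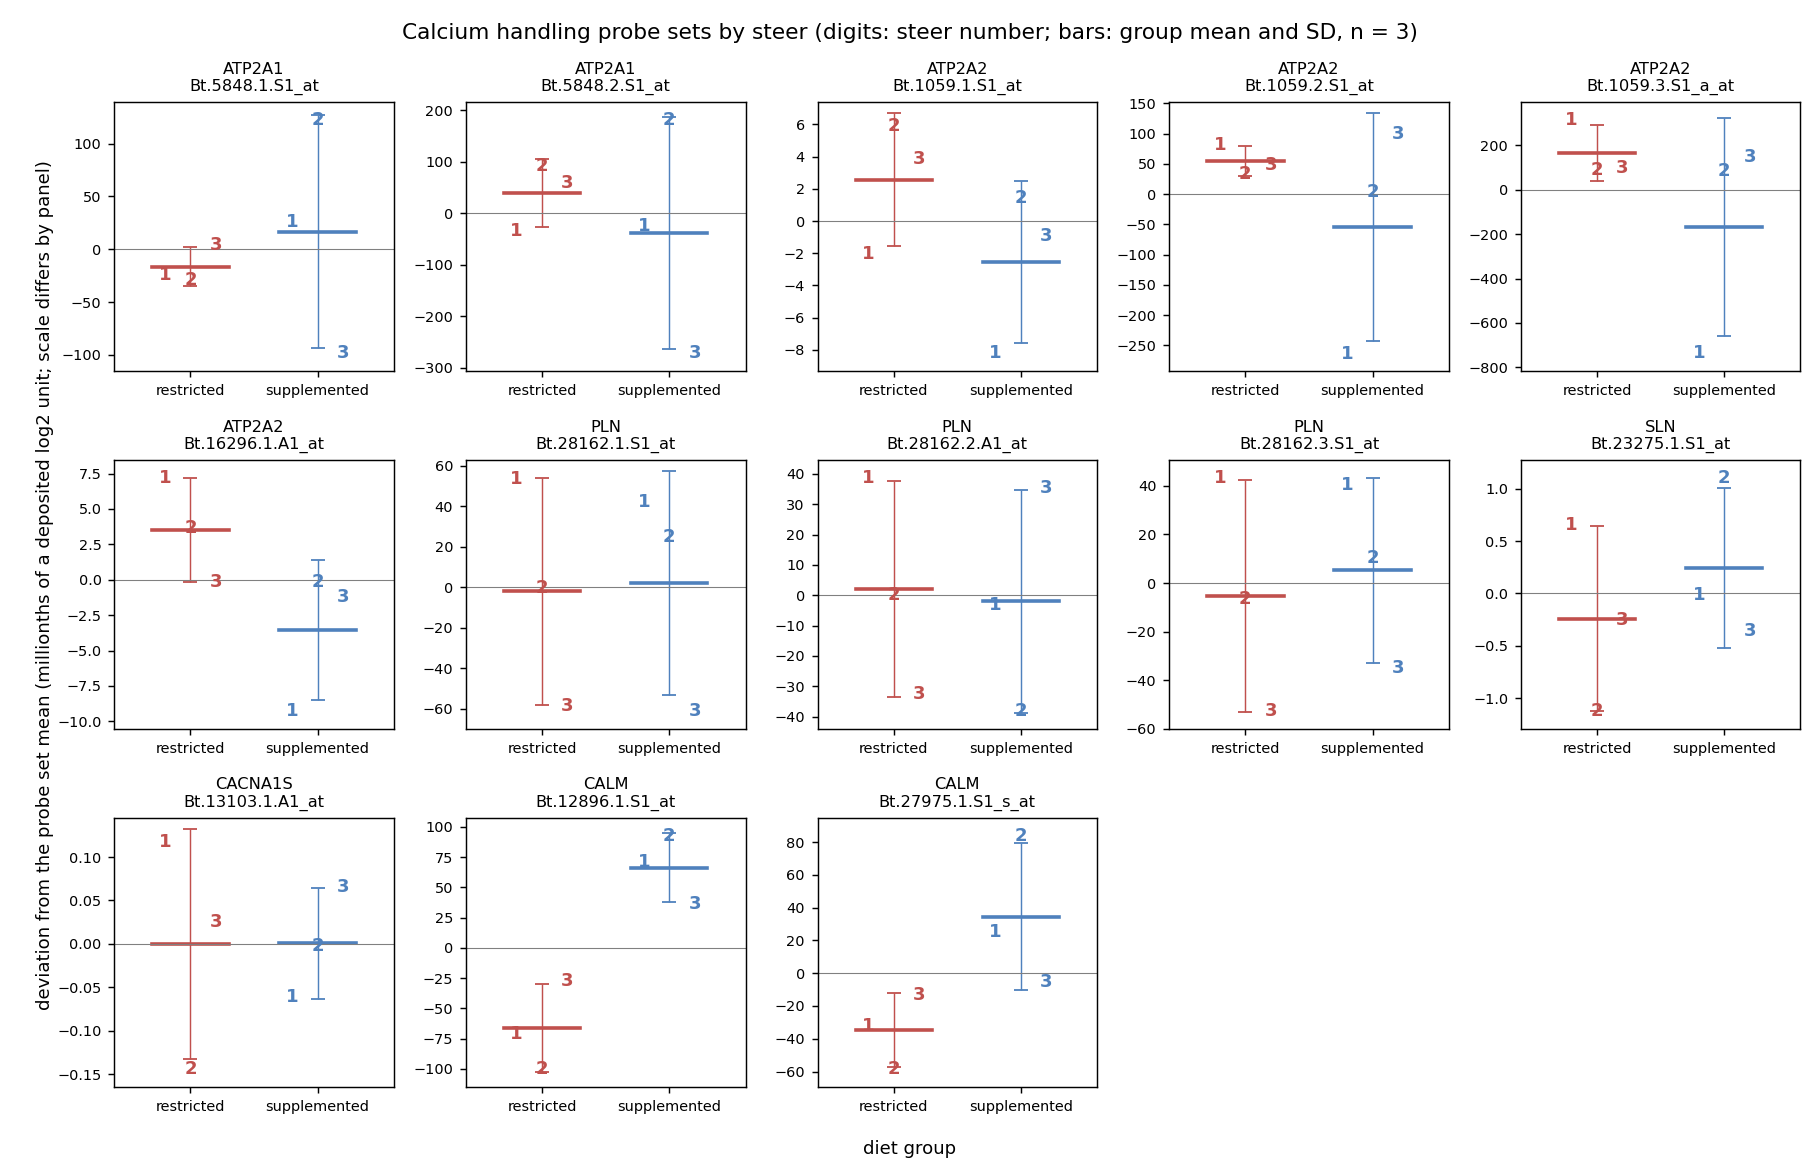
Each panel is 1 probe set, with restricted steers on the left and supplemented steers on the right. The digits are the steers of a group and mark their deviation from the probe set mean in millionths of a deposited log2 unit, on a scale of its own in each panel, with bars for the group mean and SD (n = 3). The 2 CALM panels have all restricted digits below all supplemented ones, and supplemented steer 1 lies lowest in all 4 ATP2A2 panels.

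CALM codes for calmodulin. Current records give CALM2 as a synonym of this gene, and CALM3 has a record of its own. Probe set Bt.12896.1.S1_at had a mean value of 8.85. Its deviations were -71.1, -99.8 and -27.7 millionths in restricted steers 1 to 3, against 70.6, 92.2 and 35.9 millionths in supplemented steers 1 to 3. Every restricted steer lay below every supplemented one, with a gap of 63.7 millionths. The difference was -132 millionths (SE 25.1, 95% interval -199 to -65.6) or -4.07 SDs, with a limma unadjusted p of 0.00449 and an adjusted p of 1.0. A smaller p was found in 0.312% of all probe sets. The diet took up 86.1% of the sum of squares over the 6 arrays, the largest share among the 13 probe sets.

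The second calmodulin probe set, Bt.27975.1.S1_s_at, carries the suffix that the array's maker gives to probe sets shared by several transcripts. It deviated by -32.3, -58.2 and -13.4 millionths in restricted steers 1 to 3, against 25.4, 83.6 and -5.14 millionths in supplemented steers 1 to 3. The groups did not overlap here either, with a gap of 8.24 millionths, and restricted steer 2 was lowest and supplemented steer 2 highest in both probe sets. The difference was -69.3 millionths (SE 27.5, 95% interval -142 to 3.89) or -1.94 SDs, with a limma unadjusted p of 0.0587. Over the 6 arrays the 2 probe sets ran together with a Pearson r of 0.92, a description of arrays that both share.

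CALM3, a further calmodulin gene and no member of the list, has 2 probe sets whose diet groups overlapped. They differed by -1.82 millionths or -0.852 SDs (Bt.11208.1.S1_at, limma unadjusted p = 0.325) and by -1.45 millionths or -0.625 SDs (Bt.2688.1.S1_at, limma unadjusted p = 0.459). Their 95% intervals, -2.91 to 1.20 SDs and -2.68 to 1.43 SDs, reach past 0 on both sides. The difference between CALM and CALM3 was itself not tested.

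CALM kept its direction without any single steer. The first probe set then differed by -152 to -116 millionths (limma unadjusted p from 0.00382 to 0.0197), and the second by -89.1 to -44.8 millionths (unadjusted p from 0.0309 to 0.156). With age as a covariate the differences were -121 millionths (unadjusted p = 0.0272) and -63.9 millionths (unadjusted p = 0.175). All 5 measured of 7 fast fibre markers had lower means in restricted steers, but 4 of the 5 overlapped between the diets and none passed the adjusted threshold. Their summed deviation ran from -136 to -10.8 millionths there, against 12.7 to 148 millionths in supplemented steers. This sum, like the other summed deviations below, is not scaled, so probe sets of wide spread weigh most in it. None of the 5 is near the bottom of the table, the lowest value being 10.18. The mean over these markers, each in SDs over the 6 arrays, was -0.953, -0.518 and 0.14 in restricted steers 1 to 3, against 0.353, 0.116 and 0.862 in supplemented steers 1 to 3, and overlapped. Adipocyte markers had higher means in restricted steers in all 5 measured of 6, of which 4 overlapped and none passed. Their summed deviation ran from -6870 to 16900 millionths in restricted steers, against -21100 to 7490 millionths in supplemented steers, and their lowest value was 5.21. The mean in SDs was 1.20, -0.196 and 0.592 in restricted steers 1 to 3, against 0.0196, -0.76 and -0.854 in supplemented steers 1 to 3. Over the whole array 51.7% of probe sets had a lower and 48.3% a higher mean in restricted steers, and in 8.76% the groups did not overlap. In each of these lists 1 of the 5 reached a limma unadjusted p under 0.05, as did 4.08% of all probe sets. Fast fibre and adipocyte markers are shown out of several cell type lists that were looked at. Of 6 skeletal muscle identity markers 2 were higher and 4 lower in restricted steers, and of 4 fibroblast markers 1 and 3. Of 5 endothelial markers 4 were higher and 1 lower, and the 1 nerve marker measured was lower without overlap. The part of any list in the CALM difference was not tested.

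**Figure D2:**
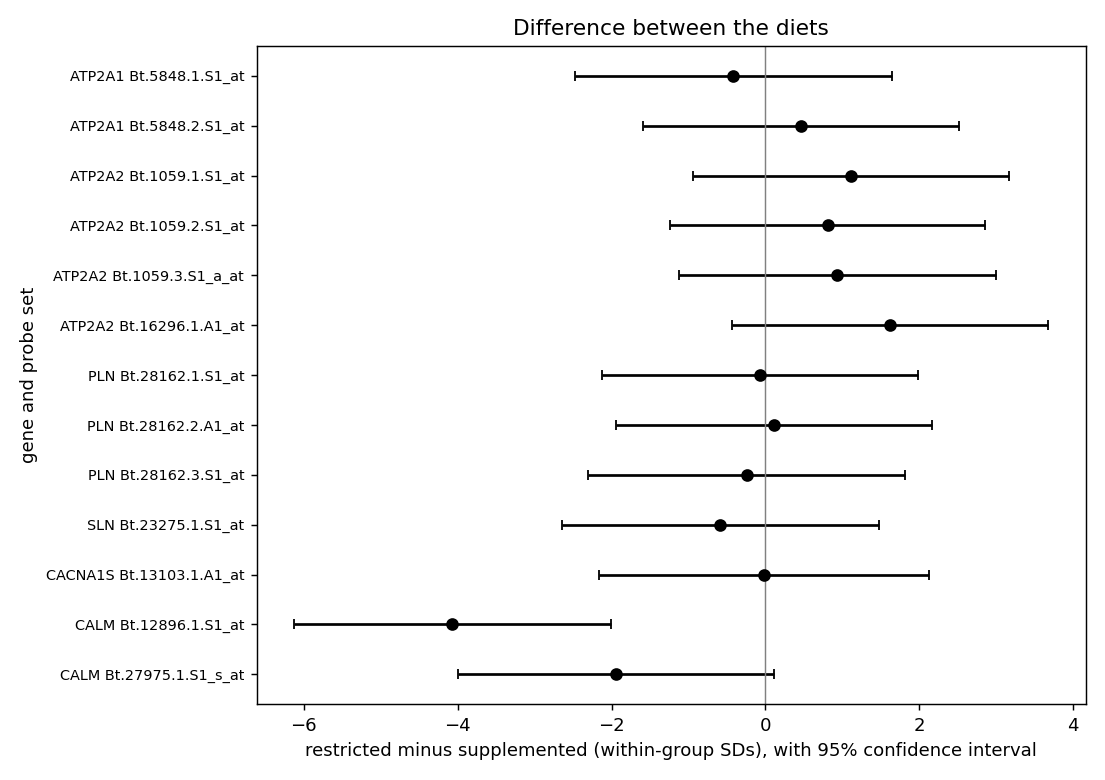
Points give the difference between the diets, restricted minus supplemented, in within-group SDs for each of the 13 probe sets, and bars its 95% confidence interval from limma. The interval of CALM Bt.12896.1.S1_at, from -6.12 to -2.01 SDs, is the 1 of 13 that lies on one side of 0.

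ATP2A1 is the fast fibre calcium pump. Probe set Bt.5848.1.S1_at, with a mean value of 7.88, deviated by -24.3, -29.4 and 4.3 millionths in restricted steers 1 to 3, against 25.6, 122 and -97.9 millionths in supplemented steers 1 to 3. Probe set Bt.5848.2.S1_at, with a mean value of 5.91, deviated by -35.2, 92.2 and 58.8 millionths in restricted steers, against -24.6, 180 and -271 millionths in supplemented steers. In both, the supplemented group held the highest animal, steer 2, and the lowest, steer 3, with all 3 restricted steers between them. The groups thus overlapped fully.

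The 2 ATP2A1 probe sets pointed to opposite sides between the diets. The first differed by -33.0 millionths or -0.418 SDs (95% interval -2.47 to 1.64 SDs, limma unadjusted p = 0.614). The second differed by 77.2 millionths or 0.464 SDs (95% interval -1.59 to 2.52 SDs, unadjusted p = 0.577). Without supplemented steer 2 the first turned to 19.7 millionths, and without supplemented steer 3 the second turned to -39.2 millionths. Over the 6 arrays they had a Pearson r of 0.82. The spread within a diet was 18.2 millionths in restricted and 110 millionths in supplemented steers in the first (SD, n = 3 each), and 66.0 and 226 millionths in the second.

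ATP2A2 codes for SERCA2, the pump of slow fibres and heart in one splice form and of most other cells in another. Its 4 probe sets all had a higher mean in restricted steers. Bt.1059.2.S1_at, with a mean value of 10.40, deviated by 81.6, 32.7 and 48.4 millionths in restricted steers 1 to 3, against -264, 2.73 and 98.7 millionths in supplemented steers 1 to 3. Bt.1059.3.S1_a_at, with a mean value of 9.64, deviated by 313, 90.6 and 99.2 millionths in restricted steers, against -734, 83.3 and 147 millionths in supplemented steers. Supplemented steer 1 lay far below the other 5 animals in both, and supplemented steer 3 lay within or above the restricted range.

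The 2 dimmer ATP2A2 probe sets had narrower spreads and the same lowest animal. Bt.1059.1.S1_at, with a mean value of 5.40, deviated by -2.05, 5.9 and 3.83 millionths in restricted steers, against -8.2, 1.43 and -0.915 millionths in supplemented steers. Bt.16296.1.A1_at, with a mean value of 5.48, deviated by 7.16, 3.62 and -0.166 millionths in restricted steers, against -9.24, -0.177 and -1.19 millionths in supplemented steers. Only in the last did the groups not overlap, and there restricted steer 3 and supplemented steer 2 nearly met.

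Differences of ATP2A2 were 0.809 SDs in Bt.1059.2.S1_at, 0.935 SDs in Bt.1059.3.S1_a_at, 1.11 SDs in Bt.1059.1.S1_at and 1.62 SDs in Bt.16296.1.A1_at. Their limma unadjusted p values were 0.347, 0.285, 0.215 and 0.0959, and the 95% interval of the last ran from -0.432 to 3.67 SDs. Much of this size came with supplemented steer 1. Without it Bt.1059.2.S1_at differed by 3.55 in place of 109 millionths, Bt.1059.3.S1_a_at by 52.5 in place of 336, Bt.1059.1.S1_at by 2.30 in place of 5.12 and Bt.16296.1.A1_at by 4.22 in place of 7.07 millionths. All 4 stayed above 0 without any single steer. Pearson r between pairs of the 4 ran from 0.60 to 0.98 over the 6 arrays. Within-group SDs of Bt.1059.2.S1_at were 25.0 millionths in restricted and 188 millionths in supplemented steers.

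Slow fibre markers did not separate the diets, with 3 of the 5 measured (of 6) higher in restricted steers and summed deviations from -9030 to 8110 millionths there, against -15800 to 11400 millionths in supplemented steers. Supplemented steer 1, lowest in ATP2A2, had a mean of -0.809 SDs over these 5 markers, the second lowest after restricted steer 2 at -0.926 SDs. The part of fibre type in the ATP2A2 values was not tested.

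**Figure D3:**
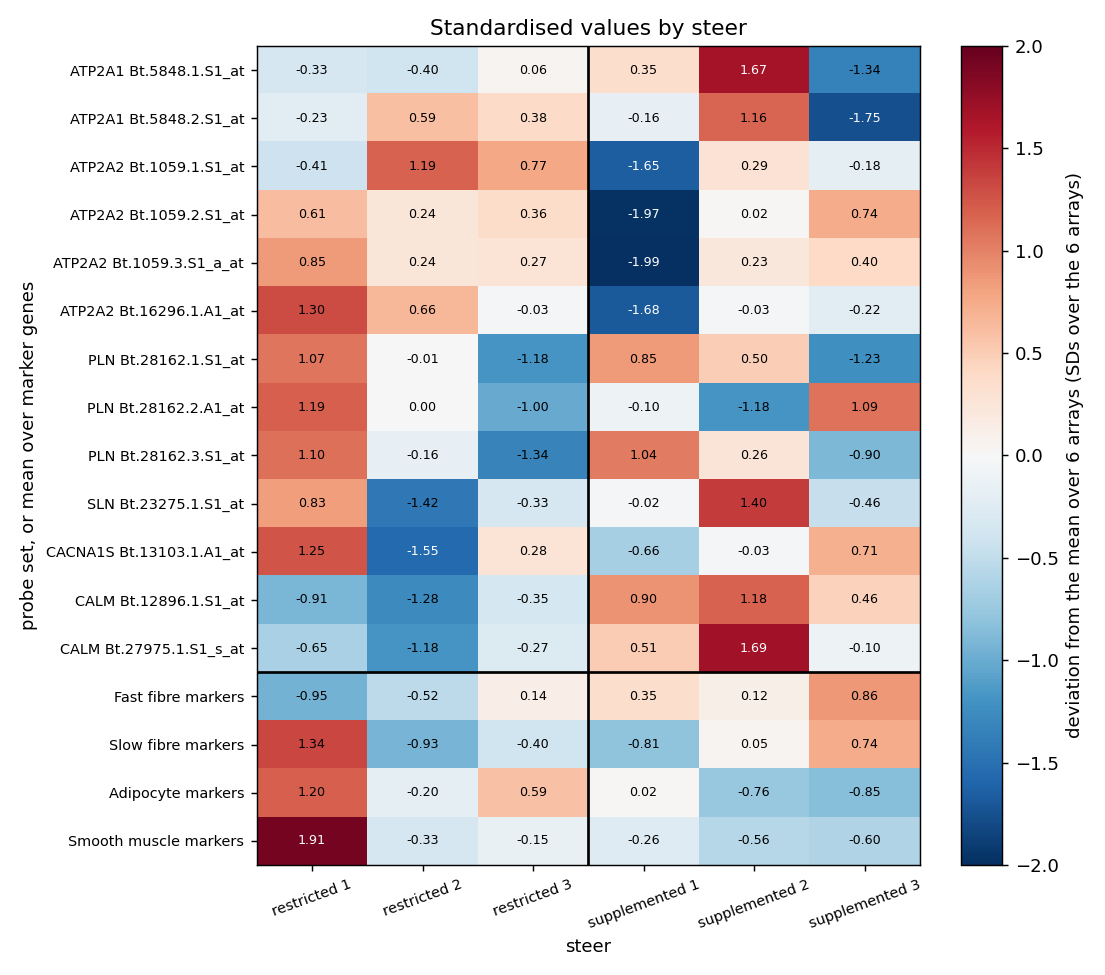
Rows are the 13 probe sets and, below the line, the mean over the measured markers of fast fibres, slow fibres, adipocytes and smooth muscle, and columns are the 6 steers with restricted ones on the left. Colours and numbers give the deviation from the mean over the 6 arrays in SDs over those arrays. The 4 ATP2A2 rows share their lowest value, from -1.99 to -1.65 SDs, in supplemented steer 1, and restricted steer 1 is highest in all 3 PLN rows.

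PLN codes for phospholamban, which holds back SERCA2 until it is phosphorylated. Its 3 probe sets had mean values of 8.17, 8.08 and 8.07. Bt.28162.1.S1_at deviated by 53.3, -0.52 and -58.7 millionths in restricted steers 1 to 3, against 42.2, 24.8 and -61.0 millionths in supplemented steers 1 to 3. Bt.28162.3.S1_at deviated by 43.1, -6.42 and -52.5 millionths in restricted steers, against 40.5, 10.3 and -35.1 millionths in supplemented steers. Steer 1 was highest and steer 3 lowest in both diets, the groups overlapped, and these 2 probe sets had a Pearson r of 0.97 over the 6 arrays. Bt.28162.2.A1_at did not follow them, with 38.5, 0.0458 and -32.4 millionths in restricted steers, against -3.34, -38.0 and 35.3 millionths in supplemented steers, and its r with them was 0.09 and 0.25.

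Between the diets PLN differed by -3.96, 4.05 and -10.5 millionths in Bt.28162.1.S1_at, Bt.28162.2.A1_at and Bt.28162.3.S1_at. These are -0.0713, 0.112 and -0.243 SDs, with limma unadjusted p values of 0.930, 0.891 and 0.767. The diet took up 0.190%, 0.470% and 2.17% of the sum of squares. The 95% intervals reach from -2.12 to 1.98, from -1.94 to 2.17 and from -2.30 to 1.81 SDs, so differences of about that size are not told apart from 0 with 3 steers a diet. Each of the 3 turned its sign without 1 or more of the single steers. Smooth muscle, which also expresses PLN, had 4 of 4 markers higher in restricted steers. All 4 overlapped between the diets, none reached a limma unadjusted p under 0.05, and their mean values were low, from 5.33 to 6.44. Summed deviations ran from -289 to 1020 millionths in restricted steers, against -302 to -141 millionths in supplemented steers. The mean over these markers, each in SDs over the 6 arrays, was 1.91 in restricted steer 1 and from -0.603 to -0.154 in all other steers. Restricted steer 1 was thus highest in these markers and in PLN. It was also highest in the means over slow fibre (1.34), adipocyte (1.20) and endothelial (0.83) markers. Supplemented steer 1, second highest in Bt.28162.1.S1_at and Bt.28162.3.S1_at, stood at -0.255 in the smooth muscle markers. The part of any of these lists in the PLN values was not tested.

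In 2 of the 3 PLN probe sets the value was lower the older the steer, inside each diet. This was looked at after the values were seen. Restricted steers 1 to 3 were 589, 595 and 611 days old, and supplemented steers 1 to 3 were 600, 612 and 618 days old. Age thus rose with the steer number in both diets. A trend with age inside a diet cannot be told apart from one with the number, or with anything that follows it. With diet in the model the slope on age was -4.92 millionths per day (SE 1.17, limma unadjusted p = 0.0183) in Bt.28162.1.S1_at and -4.01 (SE 0.638, unadjusted p = 0.00515) in Bt.28162.3.S1_at, and -1.24 (SE 1.75, unadjusted p = 0.522) in Bt.28162.2.A1_at. These 2 were the members of the 13 with an unadjusted p under 0.05 for age, a level that 4.68% of all probe sets reached. After adjustment over all probe sets their limma p values were 0.983 and 0.865, and 0 probe sets of the array passed. At equal age the diets differed by -61.4 millionths (unadjusted p = 0.0724) in the first and -57.3 millionths (limma unadjusted p = 0.0161, adjusted p = 1.0) in Bt.28162.3.S1_at, with 3 residual degrees of freedom. Bt.28162.2.A1_at then differed by -10.5 millionths (limma unadjusted p = 0.787). With the steer number as a block in place of age, Bt.28162.1.S1_at differed by -3.96 millionths (limma unadjusted p = 0.719). Bt.28162.2.A1_at then differed by 4.05 (unadjusted p = 0.909) and Bt.28162.3.S1_at by -10.5 millionths (unadjusted p = 0.19). The low p at equal age was thus not seen with the number in the model.

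SLN codes for sarcolipin, a short membrane protein of skeletal muscle and atrium that lets SERCA pumps spend ATP without moving calcium. Its probe set Bt.23275.1.S1_at had a mean value of 11.78. It deviated by 0.652, -1.12 and -0.258 millionths in restricted steers 1 to 3, against -0.0183, 1.10 and -0.358 millionths in supplemented steers 1 to 3. The groups overlapped, with the lowest animal restricted and the highest supplemented. The difference was -0.483 millionths or -0.585 SDs (95% interval -2.64 to 1.47 SDs, limma unadjusted p = 0.487). Without any 1 steer it ran from -0.93 to -0.045 millionths, and it was smallest without restricted steer 2, at -0.045, and without supplemented steer 2, at -0.0533 millionths. Its range of 2.22 millionths was narrow for this list, though 71.8% of all probe sets had a narrower one.

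CACNA1S codes for the voltage-sensing subunit of the dihydropyridine receptor. Its probe set Bt.13103.1.A1_at had a mean value of 4.95, below the median of the array, and a range of 0.261 millionths, with 27.9% of all probe sets narrower. It deviated by 0.117, -0.144 and 0.0257 millionths in restricted steers 1 to 3, against -0.0613, -0.00233 and 0.0657 millionths in supplemented steers 1 to 3. All supplemented steers lay inside the restricted range. The difference was -0.00133 millionths or -0.0128 SDs (95% interval -2.16 to 2.13 SDs, limma unadjusted p = 0.988), the smallest in size of the 13. Detection calls were not used here, so whether this probe set holds signal of the gene is not known.

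The other 11 probe sets had ranges from 14.1 to 1050 millionths, wider than those of 88.8% to 99.2% of all probe sets. The supplemented group had the larger SD in 8 of the 13, and in 4 of them, the 2 of ATP2A1 and the 2 brighter ones of ATP2A2, by 3.42 to 7.53 times. With 3 steers a diet this difference in spread was not tested. Restricted steer 1 held the highest value in 6 of the 13 and supplemented steer 2 in 5, while restricted steer 2 and supplemented steer 1 held the lowest in 4 each.

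Beside these members stand 3 lists of further calcium genes, with each gene shown by its probe set of highest mean. Of 26 genes of the voltage sensor, the triad junction and store-operated entry, 15 were measured, 6 higher and 9 lower in restricted steers. Their median difference was -0.149 SDs, where that of all genes was -0.00788 SDs. The lowest unadjusted p values belonged to ITPR1, a calcium channel of the endoplasmic reticulum (-3.61 millionths, -1.83 SDs, limma unadjusted p = 0.0702), and HRC, a calcium binder in the lumen of the sarcoplasmic reticulum (-40.0 millionths, -1.32 SDs, unadjusted p = 0.155). CALR, the lumenal calcium binder calreticulin, differed by 0.954 SDs and ASPH, whose gene also codes for junctin, by -0.982 SDs. None of the 15 reached an unadjusted p under 0.05, and the groups overlapped in all 15.

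Of 24 genes that act with calmodulin, 15 were measured, 8 higher and 7 lower, with a median of 0.0033 SDs. MYLK2, the calmodulin-driven kinase of the skeletal muscle myosin light chain, differed by -119 millionths or -1.56 SDs (limma unadjusted p = 0.106). CAMK2D, a subunit of calmodulin-dependent kinase II, differed by 243 millionths or 1.40 SDs (unadjusted p = 0.135). RCAN2, an inhibitor of calcineurin, stood at -1.40 SDs and CALD1, the actin-binding protein caldesmon, at 1.40 SDs. None of the 15 reached an unadjusted p under 0.05, and all overlapped between the diets. The calmodulin effectors thus stood on both sides of 0, beside a CALM value below it.

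Of 26 other calcium carriers and binders, 15 were measured, 3 higher and 12 lower, with a median of -0.387 SDs. Over the whole array 51.7% of probe sets were lower, and the median of all genes was -0.00788 SDs. CAPN1, the calcium-activated protease calpain 1 that takes part in the tenderization of meat after slaughter, deviated by -0.341, -0.737 and -0.302 millionths in restricted steers 1 to 3, against 0.827, 0.31 and 0.245 millionths in supplemented steers 1 to 3. The groups did not overlap, as in 8.76% of all probe sets, and the difference was -0.921 millionths or -3.26 SDs (limma unadjusted p = 0.0108, adjusted p = 1.0). The plasma membrane calcium pump ATP2B2 differed by -2.03 SDs, the reticulum calcium binder RCN2 by -1.73 SDs and the sodium-calcium exchanger SLC8A1 by -1.28 SDs. CAPN1 was the 1 gene of the 45 measured in the 3 lists with an unadjusted p under 0.05, where 4.08% of all probe sets had one. The mean values of CAPN1 (5.09) and ATP2B2 (4.94) lay below the median value of 5.14. So did those of ASPH (5.05), RCAN2 (5.04) and CALD1 (4.99) in the lists above. Without detection calls, whether these probe sets hold signal of their genes is not known.

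**Figure D4:**
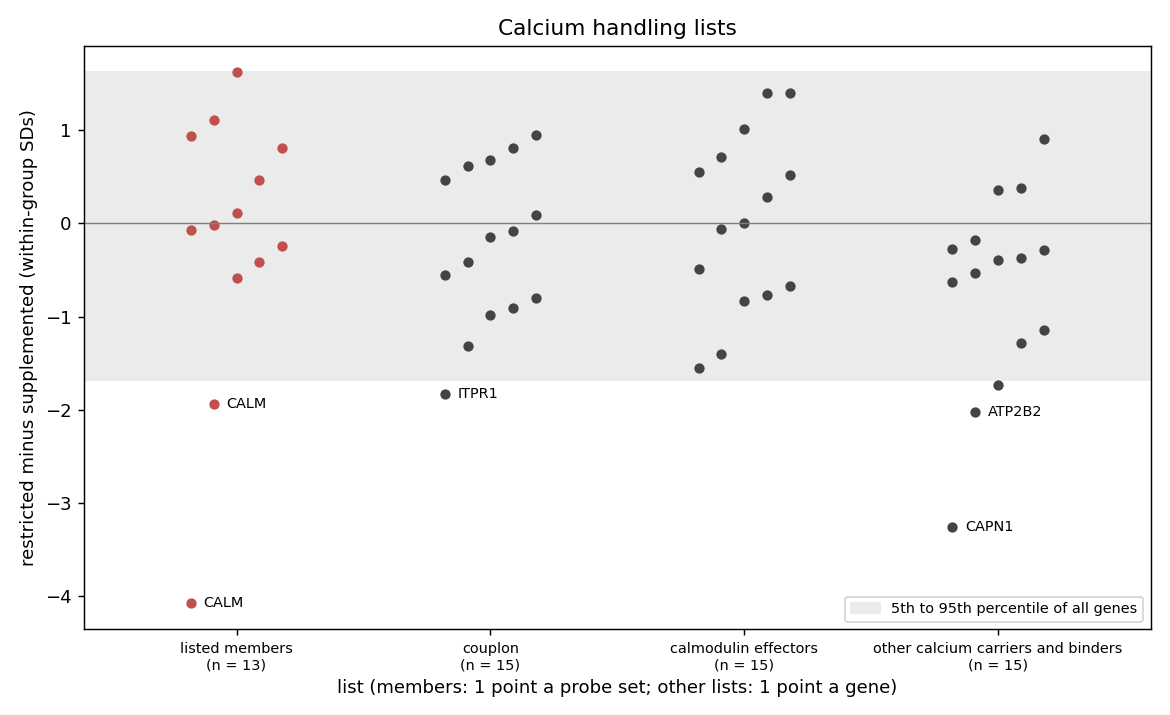
Points give the difference between the diets, restricted minus supplemented, in within-group SDs for the 13 member probe sets and for the 15 measured genes of each of 3 further lists. The grey band runs from -1.68 to 1.62 SDs, the 5th to the 95th percentile of all genes. Below it lie both CALM probe sets, ITPR1, ATP2B2, RCN2 and CAPN1, and the highest point, ATP2A2 Bt.16296.1.A1_at at 1.62 SDs, lies at its upper edge.

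The genes most like each member over the 6 arrays were looked up among probe sets above the median level, by Pearson r and as a description. A member gene stood here as its probe set of highest mean. For ATP2A2 this is Bt.1059.2.S1_at, where supplemented steer 1 lay far below the others. CALM was nearest to TDRD7 (r = 0.9969) and PAK6 (0.9885), and ATP2A2 to TMA16 (0.9942) and GLUD1 (0.9935). ATP2A1 was nearest to SRRM2 (0.9923) and WDR3 (0.9854), and PLN to RNF123 (0.9731) and DYNLT3 (0.9691). SLN was nearest to TLR9 (0.9885) and LAG3 (0.9836), and CACNA1S to TMEM143 (0.9864) and ANPEP (0.9793). Many others came close, since an r over 0.95 was found for 0.104% to 0.272% of the candidates of each gene, or 8 to 21 probe sets. Whether unrelated probe sets reach such shares over 6 arrays was not tested, so no shared regulation is read from these neighbours. None of the named neighbours is another member.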

How the data were processed

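The deposited table holds 24128 probe sets on 6 arrays. Its values were processed by the authors and are taken as log2 from their range. Labelling of 100 ng RNA with biotin is per the labels' protocols, while background correction, normalization, summarization and log base were not stated there. After 112 control probe sets were left out, 24016 were fitted in R 4.3.3 with limma 3.58.1 (lmFit, eBayes without trend), in millionths of a deposited log2 unit, two-sided, with Benjamini-Hochberg adjustment over all of them. Residual degrees of freedom were 4, and the variance prior added 0.483. The fit was tested on simulated data, with changes larger in SDs than any difference of the members. It thus does not tell how well differences of their size are found. Gene symbols come from the platform annotation, and sequences were not used here. Arrays give no molecule count, so their number limits the precision.

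The members and lists were chosen with earlier results of these data known. Named are every member with all its probe sets, up to 4 genes of each further list with the smallest unadjusted p of their highest-mean probe set, and the 2 probe sets most like each member. CALM3 was added after values were seen. Alternatives were other normalizations, array weights, other variance priors, age, the replicate number, filters on dim probe sets and leaving out each steer. Same-numbered steers of the 2 diets were not paired, since the labels do not say that the numbers pair steers. Their deviations from the group means had r from 0.02 to 0.04 over 24014 probe sets, which cannot settle whether they were paired.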

Additional observations from a re-analysis of the deposited data

How the results depend on the processing

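No member passed the adjusted threshold under any alternative run, the smallest adjusted p being 0.571 with arrays shifted to the same median. The count over the whole array was 0 with age as a covariate, 0 with the replicate block, 22 with quantile normalization and 1 to 2 without single steers. Members at an unadjusted p under 0.05 were 2 with age (PLN joining CALM), 2 with the replicate block (ATP2A2 Bt.1059.1.S1_at joining CALM), 2 with the median shift, 0 of 4 with quantile normalization and 1 to 2 without single steers. Of all probe sets tested, 4.09%, 4.96%, 0.916%, 0.397% and 3.96% to 4.89% reached that level under these settings. Against the same shares, and 3.68% above the median level, the further lists had 3 genes with age, 3 with the replicate block, 0 with the median shift, 0 of 38 above the median level, 0 of 24 with quantile normalization and 1 to 5 without single steers, of 45 otherwise. Members without overlap were 0 of 4 with quantile normalization (0.596% of all probe sets), 2 of 13 with the median shift (1.53%) and 3 to 6 without single steers (17.9% to 19.4%).

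Quantile normalization, rounded to the deposited 9 decimals, left 15456 probe sets equal on all arrays, among them both of CALM, and 8560 to test, 4 of them members. Directions there can thus not be read for most members. Array medians differed by 8.88 millionths, less than the 15.5 millionths between neighbouring sorted values around the median, while the median deviation of an array was at most 0.00817 millionths. Shifting arrays by this second measure, chosen after the data were seen, left the counts as they were. Every steer's deviations correlated best with those of its own number in the other diet, with r from 0.02 to 0.04. Other numbers had r from -0.02 to 0.01. The deviations cancel within each diet, so these matches are not independent, and age rose with the number in both diets. They cannot settle whether the steers were paired.

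Signs turned with age in PLN Bt.28162.2.A1_at (-10.5 millionths) and CACNA1S (0.0219). CACNA1S also turned with array weights (0.00987) and with the second shift (0.00183). Without single steers 6 of 13 turned at least once: ATP2A1 (-90.1 to 19.7 and -39.2 to 187), PLN (-35.5 to 24.4, -14.2 to 22.7 and -34.7 to 13.1) and CACNA1S (-0.06 to 0.0705). The cause was not tested.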
